A study of Homo sapiens with 48 samples.

Results

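The large subunit of the cytosolic ribosome was followed through 54 genes whose symbols begin with RPL or RPLP and a number. They were taken by symbol from 2 tables of SW480 cells, which are human colorectal cancer (CRC) cells with mutant APC: ribosome-protected fragments (RPFs, the mRNA pieces that a ribosome shields, a measure of ribosomes on each coding sequence) and total cytoplasmic RNA. Of these genes, 51 were among the 11145 of the RPF table, 53 among the 11947 of the total RNA table and 50 in both. RPL10L was listed for RPFs alone, and RPL39L, RPL41 and the read-through gene RPL36A-HNRNPH2 for total RNA alone. The pattern also takes in the read-through gene RPL17-C18orf32 and like-named paralogs (RPL7L1, RPL10L, RPL22L1, RPL26L1, RPL36AL and RPL39L), whose reads can be shared with the parent genes. All groups are pools of SW480 cells carrying a lentiviral, doxycycline (DOX)-inducible shRNA: shCTRL (no target), shEIF2B1 (against eIF2Bα) or shEIF2B4 (against eIF2Bδ). Each was kept with DMSO (-DOX) or with DOX at 1 µg/ml (+DOX) for 5 days, in 4 replicates made in 4 separate weeks, so that 24 lysates gave 48 libraries.

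Ribosomal proteins of the large subunit surround the rRNA that joins amino acids, form the stalk that recruits translation factors and line the tunnel through which the new chain leaves. Their mRNAs are among the most abundant of a growing cell and most begin with a 5′ terminal oligopyrimidine (5′TOP) tract, a C at the cap followed by further C or T bases. Through this tract, mTOR signaling and LARP1 set how many of these mRNAs are on ribosomes, and in this way cells adjust ribosome production with little change in mRNA. eIF2B, the target of both knockdowns, recharges eIF2 with GTP so that initiator tRNA can be brought to the ribosome.

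The 5′ ends of the genes on which the results below turn are shown first, since the tract is the feature most members share without it having been used to choose them. They come from RefSeq (GRCh38.p14). A tract was counted where an annotated start was C followed by at least 4 further C or T, which gives at least 5 pyrimidines. Where a symbol had several annotated starts, the longest tract was kept. Which start these cells use was not measured. Of the 45 members matched in that table, 30 (66.7%) had one, as had 19 of 26 small subunit genes (73.1%), 7.5% of the genes in either table and 5.1% of all symbols with a promoter sequence. The first 20 bases are given 5′ to 3′ with the tract in capitals, for members called lower on induction in all 3 lines (RPL13A, RPL27A), a P stalk protein (RPLP2), members called after a knockdown (RPL12, RPL22, RPL36A, RPL38) and the paralogs RPL26L1 and RPL7L1, which have no tract by this count.
RPL13A: CTTTTCCaagcggctgccga
RPL27A: CTTTTTCgtctgggctgcca
RPLP2: CCTTTTCCTCCCTgtcgcca
RPL12: CCTCTCggctttcggctcgg
RPL22: CCTTTCTaactccgctgccg
RPL36A: CTTTCTTTCCgcgccgatag
RPL38: CTTTTTCgtccttttccccg
RPL26L1: ggcgaacgaaacgcggagct
RPL7L1: gtagctaggagcggacgcca
They lie at chr19:49487608-49487627 (+ strand) for RPL13A, chr11:8682792-8682811 (+) for RPL27A, chr11:809967-809986 (+) for RPLP2, chr9:127451387-127451406 (- strand) for RPL12, chr1:6199576-6199595 (-) for RPL22, chrX:101391011-101391030 (+) for RPL36A, chr17:74203678-74203697 (+) for RPL38, chr5:172958729-172958748 (+) for RPL26L1 and chr6:42879616-42879635 (+) for RPL7L1, each at the first bases of an annotated transcript. A tract in these letters is a description of the annotated start and not a measure of regulation.

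All values are log2 values that the authors normalized with DESeq2, separately for RPFs and total RNA. The files give no counts, so sequencing depth is unknown. The targeted genes were lower in their own lines, and their means were lower already at -DOX. There EIF2B1 total RNA averaged 8.26 ± 0.09 (SD, n = 4) in shEIF2B1 and 8.55 ± 0.10 in shCTRL, without overlap. EIF2B4 total RNA at -DOX averaged 7.18 ± 0.23 in shEIF2B4 and 7.44 ± 0.18 in shCTRL, with overlap. Relative to shCTRL, EIF2B1 total RNA fell by 0.67 ± 0.15 (SE; limma adjusted p = 0.0263) after shEIF2B1 and EIF2B4 total RNA fell by 0.49 ± 0.14 (limma adjusted p = 0.0634) after shEIF2B4. Of 7 epithelial markers checked, EPCAM, KRT8, KRT18, KRT19, CDX2 and CDH1 were listed in total RNA. CDH1 was low (3.88 to 5.16, above 6.3% of genes), VIL1 was not listed, and neither were the 8 markers of immune cells, endothelium and fibroblasts. Libraries are bulk lysates, in which fewer cells with an mRNA and less of it per cell cannot be told apart. After normalization a value shows a gene relative to the other genes of its library. A fall below is thus a relative one, and a change shared by all genes is not seen. The paper reports lower global protein synthesis in SW480 cells after eIF2Bδ knockdown, which these values cannot show.

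In uninduced shCTRL cells, large subunit genes had more RPFs per coding base than nearly all others. This scale is not divided by mRNA amount, and median total RNA was 13.68 log2 in members against 7.9 over all genes. After division by coding length, the median member had 13.3 log2 RPFs per kb, above 98.8% of the genes with a coding sequence, and 33 members were among the 200 highest genes on this scale. RPL35, a protein at the exit of the peptide tunnel, was highest at 15.59, followed by RPL37A at 15.31 and RPLP2, an acidic protein of the P stalk, at 15.13 log2 RPFs per kb. The lowest were RPL17-C18orf32 at 9.20, RPL7L1 at 9.63 and RPL26L1 at 10.65, a read-through gene and 2 paralogs.

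Translational efficiency (TE), the log2 RPFs of a lysate less its log2 total RNA, was lower in members (median -1.35) than over all genes (median -0.89). It ran from -4.79 ± 0.41 (SD, n = 4) for RPL15, -4.18 ± 0.27 for RPL39 and -3.00 ± 0.44 for RPL5 to 0.33 ± 0.22 for RPLP2, 0.48 ± 0.31 for RPL18 and 0.58 ± 0.20 for RPL36. The 3 lowest and the 3 highest are farther apart than these SDs, while RPLP2, RPL18 and RPL36 lie within 1 SD of their neighbor. RPFs were counted on 1 transcript per gene, and for 22 members the coding sequence of that transcript was shorter than the longest one annotated for the gene in GENCODE v29. It was under 50% of the longest for 2 members, RPL15 (135 of 615 bases) and RPL23A (213 of 585 bases). RPL15 has the lowest TE and the shortest counted coding sequence of the members in the RPF table. The part of transcript choice in its level was not tested, and TE is compared below only within a gene.

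RPFs of large subunit genes were lower at +DOX than at -DOX in the control line as in both knockdown lines. In shCTRL all 51 members lay below 0 on +DOX relative to -DOX, with a median change of -0.38 against 0.01 over all genes, and 27 were called lower by limma at an adjusted p under 0.1 with the week as a block. Over all genes 4.62% were called lower in this comparison. Within shEIF2B1 49 of 51 lay below 0 (median -0.44), and 43 were called lower against 26.7% of all genes. Within shEIF2B4 51 of 51 lay below 0 (median -0.31), and 22 were called lower against 12% of all genes. Without the block no member was called in shCTRL or shEIF2B4, and 15 were called in shEIF2B1. Over all genes 0.0%, 1.81% and 13.34% were then called in shCTRL, shEIF2B4 and shEIF2B1.

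**Figure D1:**
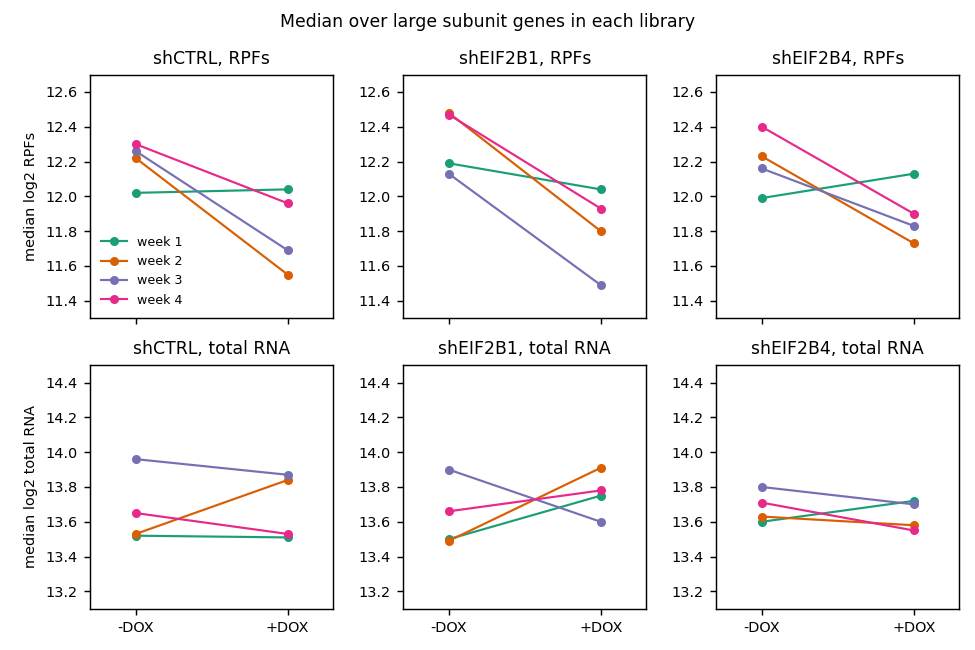
Median over large subunit genes of log2 RPFs (top) and log2 total RNA (bottom) in each library, -DOX and +DOX, 1 panel per shRNA line and 1 colored line per week. RPF medians fell between -DOX and +DOX in weeks 2, 3 and 4 of all lines, while in week 1 of shCTRL they were 12.02 and 12.04; total RNA medians moved in both directions.

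The fall was not the same in every week. The member median of shCTRL was 12.02, 12.22, 12.26 and 12.30 log2 RPFs in -DOX libraries of weeks 1 to 4, and 12.04, 11.55, 11.69 and 11.96 in the +DOX libraries of those weeks. Week 1 therefore showed no fall, and in the other weeks every +DOX median lay under every -DOX median. Taken gene by gene within a week, the median change in shCTRL was -0.03 in week 1, with 28 of 51 members lower, and -0.70, -0.57 and -0.35 in weeks 2, 3 and 4, with 51, 51 and 48 members lower.

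In shEIF2B4 the weekly medians were 0.06, -0.46, -0.27 and -0.60, again with no fall in week 1, when 20 of 51 members were lower. In shEIF2B1 they were -0.21, -0.46, -0.68 and -0.43, and 40 of 51 members were lower in week 1. Members lower in each of weeks 2 to 4 numbered 48 of 51 in shCTRL, 49 in shEIF2B1 and 46 in shEIF2B4, against 26.4%, 31.6% and 31.2% of all genes. Weeks 2 to 4 were taken after week 1 had been seen to differ. In all 4 weeks 27, 40 and 18 members were lower, against 13.7%, 27.2% and 18.3% of all genes. The calls rest on this week structure. Without week 1, 47 members were called in shCTRL (median -0.52), while leaving out any other week left none. In shEIF2B4, 45 were called without week 1 and 4, 14 and 3 without weeks 2, 3 and 4. In shEIF2B1 the count called lower stayed between 41 and 47. The count over all genes moved in the same way, with 31.6% called in either direction in shCTRL without week 1 and at most 0.04% without any other week, and 40.4% against 9.19% to 12.6% in shEIF2B4. In shEIF2B1 the share of all genes stayed between 40.72% and 46.66%.

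**Figure D2:**
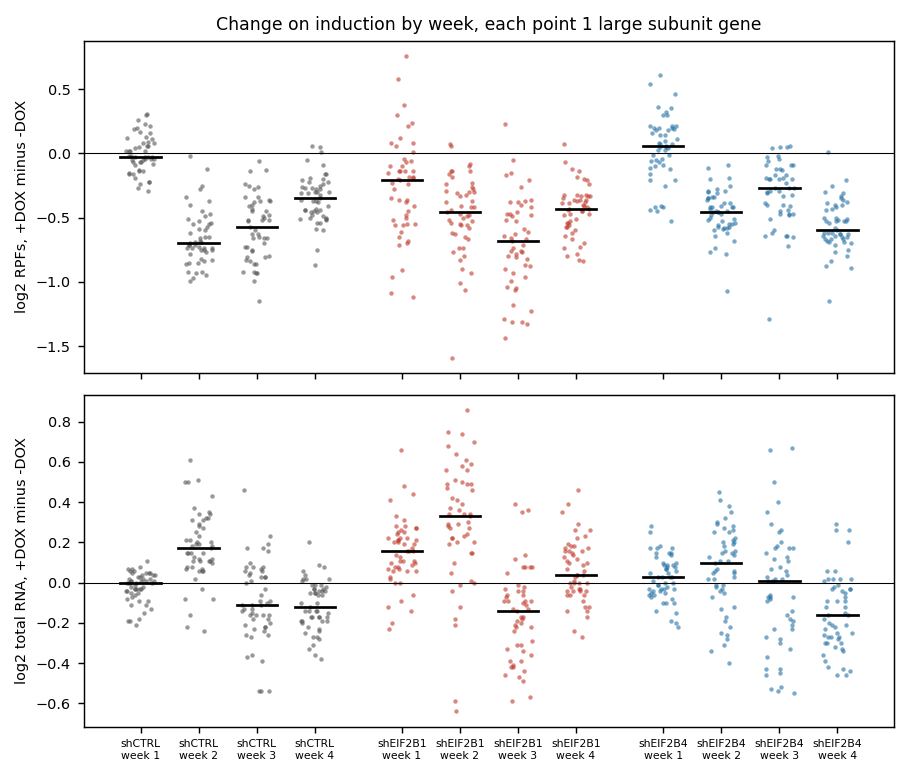
Change from -DOX to +DOX in log2 RPFs (top) and log2 total RNA (bottom) for every large subunit gene, by line and week; each point is 1 gene and the bar is the median. RPF points lie mostly below 0 in every week but week 1 of shCTRL and shEIF2B4 (medians -0.03 and 0.06); total RNA points straddle 0, with the highest median, 0.33, in week 2 of shEIF2B1.

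RPL13A, a protein that also belongs to a complex silencing inflammatory mRNAs, shows the pattern in single libraries. Its log2 RPFs in shCTRL were 12.57, 12.64, 12.61 and 12.54 at -DOX and 12.50, 11.71, 11.76 and 12.03 at +DOX in weeks 1 to 4, so each induced library was below all uninduced ones. The change was -0.59 ± 0.14 (SE; limma adjusted p = 0.0465). In shEIF2B1 it was -0.52 ± 0.11 (limma adjusted p = 0.000341) and in shEIF2B4 -0.41 ± 0.13 (limma adjusted p = 0.0385). Its total RNA did not fall, at 14.31, 14.25, 14.38 and 14.27 in shCTRL -DOX and 14.25, 14.45, 14.55 and 14.34 in shCTRL +DOX.

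RPL27A, a component of the large subunit body, went from 11.99, 12.18, 11.99 and 12.14 log2 RPFs at -DOX to 11.80, 11.33, 11.15 and 11.69 at +DOX in shCTRL. The groups did not overlap, and the change was -0.59 ± 0.12 (limma adjusted p = 0.0399). It was -0.38 ± 0.10 in shEIF2B1 and -0.39 ± 0.12 in shEIF2B4, both called. RPL30, a protein of the subunit interface, had the largest fall in shCTRL, -0.66 ± 0.14 (limma adjusted p = 0.0424), and RPL10L followed at -0.65 ± 0.12 (limma adjusted p = 0.0333).

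By role, the P stalk and its base, where elongation factors dock, were called lower in shCTRL as a whole, where 4.62% of all genes were and where no call held without the block or without week 2, 3 or 4. RPLP0 changed by -0.51 ± 0.13, RPLP1 by -0.57 ± 0.11, RPLP2 by -0.55 ± 0.12 and RPL12 by -0.46 ± 0.11, 4 of 4 called. Of 8 tunnel proteins 4 were called lower (median -0.36), and of the 3 proteins near the peptidyl transferase centre RPL10 was, at -0.57 ± 0.13. RPL10A of the L1 stalk, which moves with the exiting tRNA, was called at -0.35 ± 0.11. RPL5 and RPL11, which carry 5S rRNA into the subunit and bind MDM2 when assembly fails, had values of -0.33 ± 0.14 and -0.29 ± 0.10 and were not called in shCTRL. Within shEIF2B1 they were, at -0.84 ± 0.10 and -0.44 ± 0.10, while RPLP1 (-0.22 ± 0.11) and RPL12 (0.04 ± 0.11) were not. Over all genes 26.7% were called lower in shEIF2B1. A call in only some lines is not a shown difference between them. Of these genes, the RPF response corrected for shCTRL, given below, called RPL5 and RPL12 and neither RPL11 nor RPLP1.

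**Figure D3:**
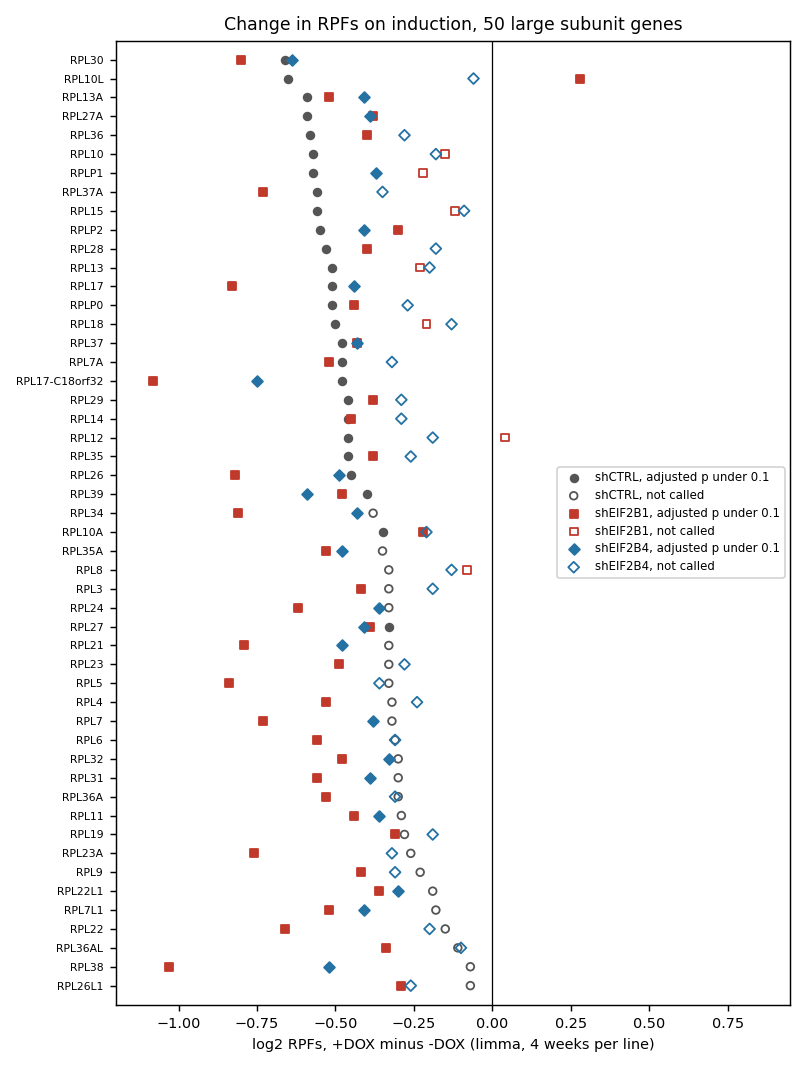
Change in log2 RPFs from -DOX to +DOX for 50 of the 51 large subunit genes (ordered by shCTRL) in the 3 lines; filled symbols passed a limma adjusted p under 0.1 and open ones did not. In shCTRL every plotted value lies below 0, from -0.66 for RPL30 to -0.07 for RPL38 and RPL26L1; RPL10L (0.28) and RPL12 (0.04) are the 2 values above 0 in shEIF2B1.

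The members with the smallest changes in shCTRL were largely the paralogs. RPL26L1 changed by -0.07 ± 0.08, RPL36AL by -0.11 ± 0.09, RPL7L1 by -0.18 ± 0.09 and RPL22L1 by -0.19 ± 0.13, none of them called, with RPL38 (-0.07 ± 0.11) and RPL22 (-0.15 ± 0.10) among them. RPL10L, the paralog that did fall, shares 3.4% of the 30-base words of its coding sequence with the counted sequence of RPL10. That sequence holds 492 of the 645 bases of the longest annotated one, and words shared with the rest were not counted. RPL36AL shares 11.6% with RPL36A, and RPL7L1, RPL22L1 and RPL26L1 share no such word with their parents. The read-through gene RPL17-C18orf32 shares 55.3% with RPL17. Members with a 5′ tract had a median change of -0.46 in shCTRL (18 of 28 called lower) and members without one -0.32 (6 of 15 called). The members without one include the paralogs RPL7L1, RPL10L, RPL26L1 and RPL36AL and the read-through gene RPL17-C18orf32, while RPL22L1 has a tract. The split therefore also parts most paralogs from the other members, and the part of either in these medians was not tested. Genes of neither subunit with a tract numbered 651 in the RPF table, and 31 of them (4.8%) were called lower, near the share of all genes. In shEIF2B1 members with and without a tract had RPF medians of -0.45 and -0.42, with 82.1% and 86.7% called lower. In TE, genes of neither subunit with a tract were called lower in 17.8% of cases in shEIF2B1 and 6.1% in shEIF2B4, against 8.0% and 2.4% of other genes without one.

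Total RNA did not follow. On induction of shCTRL the median member changed by 0.01, 26 of 53 lay below 0, and only RPL39L was called lower (-0.29 ± 0.08, limma adjusted p = 0.091), against 2.18% of all genes. Within shEIF2B1 the median was 0.10 with 5 members called higher and 1 lower, and within shEIF2B4 it was -0.02 with 4 higher and 10 lower. In each of these lines 34.4% of all genes were called, a larger share than of members. TE therefore fell with the RPFs. In shCTRL 45 of 50 members lay below 0 (median -0.42, against 0.02 over all genes), and 5 of 50 were called lower, RPL10, RPL30, RPL13A and RPL27A among them, against 0.203% of all genes.

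The 5 members at or above 0 in TE were RPL26L1 (0.16), RPL7L1 (0.09), RPL22L1 (0.06), RPL36AL (0.03) and RPL38 (0.02), the first 4 being all the paralogs with a TE. In shEIF2B1 all 50 lay below 0 (median -0.55) and 42 were called, against 9.07% of all genes. In shEIF2B4 45 lay below 0 (median -0.30) and 12 were called, against 2.8%. Here too the count outside shEIF2B1 turned on the week. Without week 1, 34 members were called in shCTRL and 30 in shEIF2B4, and without one of the other weeks at most 2 and 3. Over all genes 5.73% and 19.7% were called without week 1, and at most 0.17% and 1.48% without another week.

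Neighboring genes of the pathway gave the following counts, beside 4.62% of all genes called lower in shCTRL and 9.85% in either direction. Without the block, or without week 2, 3 or 4, at most 0.04% of all genes were called there. Of 33 small subunit genes 31 lay below 0 in RPFs of shCTRL (median -0.42) and 20 were called lower, and their weekly medians were -0.04, -0.65, -0.53 and -0.35, also without a fall in week 1. Of 21 other mRNAs known for a 5′TOP tract, 21 lay below 0 (median -0.30) and 7 were called lower, among them the elongation factor genes EEF1B2 (-0.45 ± 0.11) and EEF2 (-0.49 ± 0.16) and RACK1, a small subunit scaffold (-0.48 ± 0.15). Of 35 assembly and export factors of the 60S subunit 3 were called lower and 1 higher (median -0.17), and of 11 genes for RNA polymerase I and its factors none was called (median -0.05).

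Because shCTRL falls as well, the response to a knockdown was taken as its change minus that of shCTRL, and on this scale the members scatter around 0. After shEIF2B1 the median RPF response was -0.13, 31 of 51 members lay below 0, and limma called 4 higher and 7 lower. These 11 of 51 compare with 27.3% called over all genes, 1335 higher and 1703 lower. With each library centred on its median the members called were 4 higher and 4 lower, without RPL7L1, RPL21 and RPL23A, and over all genes 1718 higher and 1368 lower. The members called lower were RPL38 (-0.96 ± 0.26, adjusted p = 0.0169), RPL17-C18orf32 (-0.60 ± 0.22), RPL22 (-0.52 ± 0.17), RPL5 (-0.51 ± 0.18), RPL23A (-0.50 ± 0.20), RPL21 (-0.46 ± 0.18) and RPL7L1 (-0.33 ± 0.13). Those called higher were RPL10L (0.93 ± 0.17, adjusted p = 0.00188), RPL12 (0.50 ± 0.17), RPL15 (0.45 ± 0.16) and RPL10 (0.43 ± 0.17). In the alternative with week 1 left out, 3 members were called, RPL10, RPL10L and RPL38, against 13.98% of all genes. Without the block there were none, against 0.45% of all genes.

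**Figure D4:**
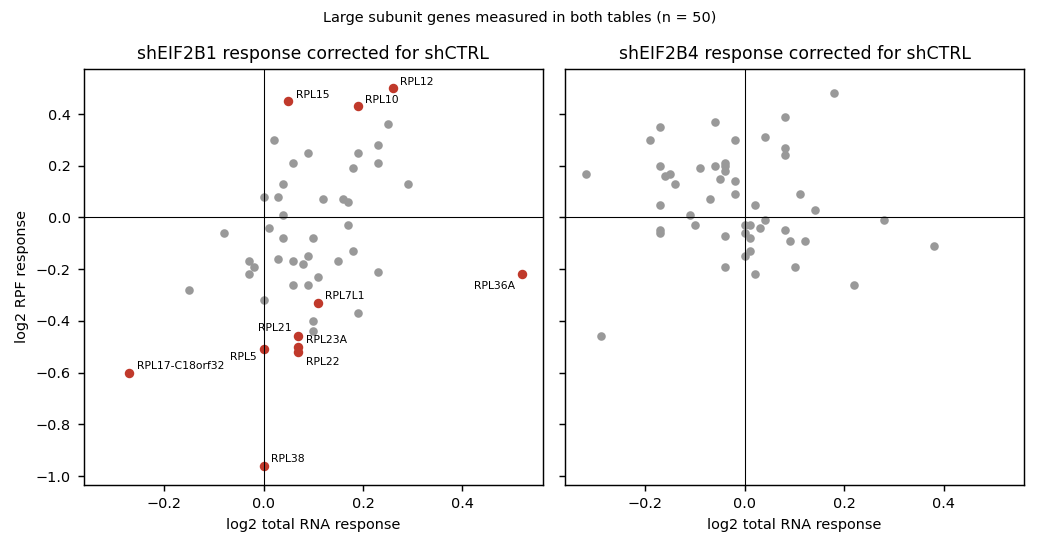
Response of 50 large subunit genes to shEIF2B1 (left) and shEIF2B4 (right), each corrected for shCTRL, as log2 total RNA (horizontal) against log2 RPFs (vertical); named points passed a limma adjusted p under 0.1 in either measure. After shEIF2B1 RPF responses run from -0.96 (RPL38) to 0.50 (RPL12), total RNA responses stay between -0.27 and 0.52, and no point is named for shEIF2B4.

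RPL38, a small protein of the subunit surface known for the translation of Hox mRNAs in the mouse embryo, was the member that moved most. In shEIF2B1 its log2 RPFs were 10.45, 11.90, 10.52 and 12.16 at -DOX and 9.80, 10.31, 9.48 and 11.33 at +DOX in weeks 1 to 4, lower in 4 of 4 weeks. In shCTRL they were 9.87, 10.36, 10.33 and 10.98 at -DOX and 10.18, 10.03, 10.04 and 11.03 at +DOX, lower in 2 of 4 weeks. The lines differed before induction more than after it. The uninduced means were 10.39 ± 0.46 (SD, n = 4) in shCTRL, 11.26 ± 0.90 in shEIF2B1 and 10.97 ± 0.82 in shEIF2B4, and the induced means 10.32 ± 0.48, 10.23 ± 0.81 and 10.45 ± 0.39. The induced means lie within 1 SD of each other.

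RPL22, whose loss is frequent in microsatellite-unstable CRC, had 10.02, 10.09, 9.85 and 10.40 log2 RPFs in shEIF2B1 at -DOX and 9.31, 9.61, 8.81 and 9.98 at +DOX, lower in each week although the groups overlap. In shCTRL it had 9.50, 10.07, 9.80 and 9.88 against 9.57, 9.70, 9.44 and 9.94, lower in 2 of 4 weeks. Its total RNA in shEIF2B1 was level, with means of 12.61 ± 0.11 at -DOX and 12.62 ± 0.09 at +DOX.

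RPL10L went the other way. Its log2 RPFs in shEIF2B1 were 9.97, 9.75, 10.08 and 9.52 at -DOX and 10.73, 9.82, 10.30 and 9.59 at +DOX, higher in 4 of 4 weeks, while in shCTRL they were 10.44, 10.09, 10.71 and 9.97 against 10.22, 9.12, 9.79 and 9.47, lower in 4 of 4. RPL10L is not listed in total RNA, and the counted coding sequence of RPL10 holds 492 of 645 bases of the longest one. Whether RPFs counted on RPL10L come from RPL10 was not tested. RPL12, at the stalk base, had 12.07, 11.98, 11.99 and 11.77 in shEIF2B1 at -DOX and 12.65, 11.84, 11.95 and 11.53 at +DOX, which overlap. Its positive response is the difference to shCTRL, where it went from 12.27, 12.09, 12.10 and 12.06 to 12.11, 11.35, 11.59 and 11.62. Among the other P stalk genes the RPF responses to shEIF2B1 were 0.07 ± 0.17 for RPLP0, 0.36 ± 0.18 for RPLP1 and 0.25 ± 0.17 for RPLP2, none called.

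After shEIF2B4 the median RPF response was 0.05, 22 of 51 members lay below 0, and limma called none, with 3 at an unadjusted p under 0.05. Over all genes 2.75% were called. The extremes were RPL10L (0.60 ± 0.18, adjusted p = 0.116), RPL15 (0.48 ± 0.17) and RPL10 (0.39 ± 0.17) on one side and RPL38 (-0.46 ± 0.23), RPL17-C18orf32 (-0.26 ± 0.28) and RPL7L1 (-0.22 ± 0.22) on the other. With all 24 libraries in one fit RPL10L was called, against 4.4% of all genes. With each week's change as the unit RPL10, RPL10L, RPL15 and RPL38 were called, against 17.89% of all genes. Without week 1 those and RPL18 were called, against 14.49% of all genes. Both responses use the same shCTRL libraries. The contrast between the knockdowns called no member in RPFs (1 at an unadjusted p under 0.05; 0.00897% of all genes called), total RNA (6; 0.1% of all genes) or TE (8; 0.0% of all genes), so a call after shEIF2B1 and none after shEIF2B4 is not a shown difference.

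In total RNA the median response was 0.09 after shEIF2B1 and -0.0 after shEIF2B4. RPL36A was the only member called, 1 of 53 after shEIF2B1 against 3.47% of all genes, and none was called after shEIF2B4 (4 at an unadjusted p under 0.05) against 5.4%. RPL36A, which contacts the tRNA in the exit site, had 12.07, 12.22, 12.45 and 12.52 log2 total RNA in shEIF2B1 at -DOX and 12.55, 12.81, 12.80 and 12.87 at +DOX, with every induced library above every uninduced one. In shCTRL it had 12.04, 12.06, 12.83 and 12.58 against 11.93, 12.14, 12.58 and 12.55. The response was 0.52 ± 0.14 (limma adjusted p = 0.0595), and it was 0.28 ± 0.12 after shEIF2B4 (adjusted p = 0.239). The call after shEIF2B1 was lost without week 1, 3 or 4, where 0.93%, 1.74% and 0.93% of all genes were called. Without week 2 it held, beside 5.4% of all genes.

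RPL36A-HNRNPH2, whose counted coding sequence shares 82.6% of its 30-base words with that of RPL36A, had a total RNA response of 0.22 ± 0.12 to shEIF2B1. The RPFs of RPL36A did not follow its RNA (-0.22 ± 0.17). Its TE response was -0.75 ± 0.18 (limma adjusted p = 0.0366), and with RPL38 (-0.96 ± 0.27) and RPL22 (-0.58 ± 0.19) it made up the 3 members called in TE after shEIF2B1, of 50 and all lower, against 7.1% of all genes. Without week 2 the count was 12, against 12.61% of all genes. Without any other week it was 0, against at most 0.4% of all genes. After shEIF2B4 none was called in TE (3 at an unadjusted p under 0.05), against 0.0923% of all genes; the lowest and highest values were -0.49 ± 0.25 for RPL22L1 and 0.52 ± 0.23 for RPL28.

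Other genes of the pathway were counted in the same RPF response to shEIF2B1. Over all genes 15.3% were called lower in it. Here 20 of 35 assembly and export factors of the 60S subunit were called lower and 1 higher (median -0.44), led by SDAD1 (-0.79 ± 0.16), TMA16 (-0.67 ± 0.15) and RPF2, which places the 5S particle (-0.78 ± 0.18). Of the other 5′TOP mRNAs 9 of 21 were called lower (median -0.32), with NAP1L1, a histone chaperone, at -1.04 ± 0.17, NACA at -0.75 ± 0.19 and EIF3E at -0.64 ± 0.17. Of 33 small subunit genes 5 were called lower and 2 higher (median -0.02), RPS24 being lowest at -0.97 ± 0.19. UBTF (-0.55 ± 0.19) and RRN3 (-0.36 ± 0.14), factors of RNA polymerase I, were called, 2 of 11. The difference in frequency between lists was not tested.

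Without any DOX the lines already differed. In RPFs of uninduced shEIF2B1 8 members were called higher and 3 lower than in uninduced shCTRL, 11 of 51 against 34.7% of all genes. RPL38 was higher by 0.87 ± 0.19 (limma adjusted p = 0.0272), RPL7, RPL21 and RPL5 were higher by 0.51 ± 0.16, 0.43 ± 0.12 and 0.43 ± 0.17, and RPL10L and RPL15 were lower, at -0.47 ± 0.11 and -0.43 ± 0.13. In uninduced shEIF2B4 2 members were called higher (RPL38, 0.58 ± 0.19, and RPL13A, 0.25 ± 0.09) and 3 lower (RPL15, RPL10L and RPL7A), against 27.2% of all genes, where the median of all genes was -0.13 and that of members -0.02.

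RPL38, RPL5 and RPL21 thus were high in uninduced shEIF2B1 and had a negative response, and RPL10L and RPL15 the reverse. The same -DOX libraries enter both values with opposite sign, and their part in the responses cannot be told apart here. In total RNA no member was called between uninduced shEIF2B1 and shCTRL (2 at an unadjusted p under 0.05), against 0.117% of all genes. RPL13A alone was called between uninduced shEIF2B4 and shCTRL, at 0.21 ± 0.06, against 4.9% of all genes.

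Members differed in base composition, and their responses varied with it. The share of codons ending in G or C (GC3) of their counted coding sequences ran from 41.5% for RPL34 to 83.1%, with a median of 57.2% against 59.02% over all genes. For RPL22 and RPL38 the counted coding sequence holds 288 of 387 and 204 of 213 bases of the longest annotated one. Its first codons need not be those of the longest. The first 20 codons of the counted coding sequence are shown for 4 of the members called in RPFs after shEIF2B1. These 4 were picked as examples, and the first codons of other members were not counted. Each codon-ending G or C is in capitals, from GENCODE v29 transcripts.
RPL12: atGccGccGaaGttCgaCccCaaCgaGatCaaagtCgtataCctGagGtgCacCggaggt
RPL38: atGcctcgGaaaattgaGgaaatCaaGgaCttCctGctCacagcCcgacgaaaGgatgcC
RPL22: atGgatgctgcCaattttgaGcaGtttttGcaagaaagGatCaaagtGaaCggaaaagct
RPL5: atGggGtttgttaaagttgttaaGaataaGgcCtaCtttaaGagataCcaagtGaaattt
Of these 20 codons 16 end in G or C in RPL12, which was called higher, against 12 in RPL38, 9 in RPL22 and 9 in RPL5, which were called lower. Over the whole counted coding sequence the order was another, with GC3 of 56.6% for RPL12, 63.2% for RPL38, 56.2% for RPL22 and 45.3% for RPL5.

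The 17 members with the lowest GC3 (41.5% to 53.3%) had a median RPF response to shEIF2B1 of -0.26, with 16 below 0 and 3 called lower. The 17 with the highest (63.7% to 83.1%) had a median of 0.13, with 5 below 0, 1 called higher and none lower. After shEIF2B4 these medians were -0.05 and 0.20. Across members Spearman's rho between GC3 and the RPF response was 0.62 for shEIF2B1 and 0.63 for shEIF2B4 (n = 51), and over all genes with a coding sequence it was 0.65 and 0.58 (n = 10776). Between uninduced shEIF2B1 and shCTRL it was -0.61 over members and -0.81 over all genes, of opposite sign.

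Total GC content of the coding sequence gave rho values of 0.83 and 0.8 for the responses to shEIF2B1 and shEIF2B4 and -0.82 for uninduced shEIF2B1 (n = 51). These points share their libraries, and the responses share the -DOX libraries with the uninduced comparison. The part of base composition in the responses was not tested. The fall on induction of shCTRL had the other order, with medians of -0.33 in the low and -0.50 in the high GC3 group (rho = -0.35 over members, -0.29 over all genes). All 17 members of each group were below 0. RPL38 and RPL10L stood off the relation, as the plot of GC3 shows.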

How the data were processed

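The authors deduplicated total RNA reads and aligned them with Bowtie2 to the GENCODE v38 protein-coding transcriptome. RSEM quantified them, and the most expressed transcript of each gene was kept. RPF reads were counted on the CDS of those transcripts. With DESeq2 the authors turned the reads per gene into regularized log2 values, once for RPFs and once for total RNA, and deposited these. The submitters' processing notes name cutadapt 1.18, SAMtools 1.9 and R 4.3.1. Replicate 3 is 1 library sequenced in 2 runs. No counts are given, so depth and counting error are unknown.

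Groups and replicates come from the labels. The limma package 3.58.1 (R 4.3.3) was used for the response on 16 libraries (replicate, shRNA, DOX and shRNA by DOX, eBayes with trend), induction on 8 libraries per line, uninduced lines on 12 and the difference between knockdowns on 24. The call was an adjusted p under 0.1 (two-sided, Benjamini-Hochberg over the whole table). The labels place replicates in separate weeks. Libraries with 1 number deviated together, with a mean correlation of 0.56 in RPFs, 0.18 in total RNA and 0.54 in TE. The value for other numbers, -0.19 in RPFs, is not a separate contrast, because deviations within a group sum to 0. The replicate was therefore a block.

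Some genes are counted but not reported singly here. The members and all lists were chosen with earlier results of these data known. The symbol pattern for the small subunit also matched 10 RPF genes with other symbol endings. They were left out after they were seen (with them 24 of 43 were called lower in shCTRL). Among them are S6 kinases, but also the small subunit gene RPS4Y1 and the read-through gene RPS10-NUDT3. The large subunit members keep their read-through genes, so the lists of the subunits follow unlike rules. Members named are the extremes of each response and level, those called, the P stalk, the 5S RNP and paralogs, with up to 3 genes per other list. Other members in the RPF and uninduced results, and genes of other lists in the shCTRL results, were named after their values were seen. Positions of 5′ ends come from RefSeq, coding sequences from GENCODE v29 on GRCh38 (matched by transcript identifier without version, 96.7% of RPF genes and all 54 members). Python 3.11.15 and matplotlib 3.10.9 were used.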

Additional observations from a re-analysis of the deposited data

Results flagged for a closer look

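In 2 of 96 groups of 4 libraries checked, 1 library lay apart from the other 3. Chance flags 1 in 20 independent groups, but these groups share lysates and weeks, so the count cannot be set against that rate. RPL13A had 14.90 log2 total RNA in week 2 of shEIF2B1 +DOX, above 14.63 in each of the other weeks. RPL38 had 11.03 log2 RPFs in week 4 of shCTRL +DOX, against 10.03 to 10.18 in the others, and its uninduced library of that week was also the highest of its group at 10.98.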

How the results depend on the processing

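Replicate numbers mark weeks. Without the replicate block, members called fell from 11 to 0 in RPFs, 1 to 0 in total RNA and 3 to 0 in TE after shEIF2B1. Over all genes the shares fell from 27.26% to 0.45%, 3.47% to 1.6% and 7.1% to 0.0%. On induction members called fell from 27, 44 and 22 to 0, 15 and 0 in RPFs of shCTRL, shEIF2B1 and shEIF2B4. They fell from 5, 42 and 12 to 0 in TE of each, and from 1 to 0 in total RNA of shCTRL. Over all genes the shares on induction fell from 9.85%, 49.41% and 23.82% to 0.0%, 13.34% and 1.81% in RPFs. In TE they fell from 0.39%, 17.14% and 6.21% to 0.0%, 0.08% and 0.07%, and in total RNA of shCTRL from 4.44% to 0.08%.

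With no shCTRL correction the counts were 44, 6 and 42 in RPFs, total RNA and TE after shEIF2B1 and 22, 14 and 12 after shEIF2B4, and the medians were -0.44 in RPFs and -0.55 in TE after shEIF2B1 and -0.31 and -0.30 after shEIF2B4. Signs then turned in RPFs for RPL10 (-0.15) and RPL15 (-0.12) after shEIF2B1 and RPL10 (-0.18), RPL10L (-0.06) and RPL15 (-0.09) after shEIF2B4, and in TE for RPL12 (-0.30), RPL15 (-0.23) and RPL18 (-0.27) after shEIF2B1 and RPL36 (-0.07) after shEIF2B4. The subtracted shCTRL fall makes this difference by construction. Over all genes the uncorrected fits called 49.41%, 34.35% and 17.14% in RPFs, total RNA and TE of shEIF2B1. In shEIF2B4 these shares were 23.82%, 34.42% and 6.21%.

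All 24 libraries in one fit gave 5 members in RPFs and 0 in TE after shEIF2B1 and 1 in RPFs after shEIF2B4. Over all genes this fit called 17.0%, 0.41% and 4.4%. An adjusted p under 0.05 gave 3, 0 and 1 in RPFs, total RNA and TE after shEIF2B1, and on induction 11 in RPFs, 0 in total RNA and 0 in TE of shCTRL, 3 in total RNA of shEIF2B1, and 5 in total RNA and 5 in TE of shEIF2B4. Centring each library gave 10 in TE on induction of shCTRL. Over all genes it turned 583 higher and 515 lower into 456 and 638 in RPFs on induction of shCTRL, 20 and 22 into 22 and 37 in TE there, and 452 and 193 into 382 and 261 in total RNA after shEIF2B4. With each week's change as the unit, chosen after seeing the data, 4 were called in RPFs and 3 in total RNA after shEIF2B4 and 11 in TE after shEIF2B1. Over all genes 17.89%, 10.41% and 11.71% were called there.

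Leaving out 1 week gave 3 to 10 (RPFs), 0 to 1 (total RNA) and 0 to 12 (TE) after shEIF2B1. Over all genes these ranges were 13.72% to 24.35%, 0.93% to 5.4% and 0.0% to 12.61%. After shEIF2B4 it gave 0 to 5 (RPFs) and 0 to 3 (TE), against 0.39% to 14.49% and 0.0% to 13.08% of all genes. On induction, leaving out 1 week gave 0 to 47, 42 to 47 and 3 to 45 in RPFs of shCTRL, shEIF2B1 and shEIF2B4. In total RNA it gave 0 to 5, 2 to 10 and 5 to 12. In TE it gave 0 to 34, 28 to 37 and 2 to 30. Over all genes the RPF ranges were 0.03% to 31.64%, 40.72% to 46.66% and 9.19% to 40.44%. Those in total RNA were 0.03% to 20.52%, 21.64% to 40.43% and 20.36% to 34.64%. Those in TE were 0.0% to 5.73%, 7.66% to 17.4% and 0.92% to 19.66%. The total RNA response of RPL17-C18orf32 to shEIF2B1, -0.27, ranged from -0.49 (without week 4) to 0.06 (without week 2). The induction fits of the knockdown lines were added after seeing the data. Causes were not tested. No counts are given, so what depth limits is unknown.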
